A study of Mus musculus with 4 samples.

Results

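This report covers 9 genes of the activin system and the FOXL2 peaks around them: the follistatin genes Fst, Fstl1 and Fstl3, the subunit genes Inha, Inhba and Inhbb, and the receptor genes Acvr1b, Acvr2a and Acvr2b. They were chosen by name from 21887 protein-coding genes, and every FOXL2 peak with its centre in a member or within 100 kb of either end was taken. FOXL2 binding was mapped by ChIP-seq, which sequences the DNA recovered with an antibody against a bound protein, in ovaries of CD1 mouse embryos at E14.5. The 2 FOXL2 ChIP samples came from separate pools of 80 to 100 XX gonads, freed of the mesonephros, and the 2 input samples were chromatin from such pools with no antibody. All 4 samples share strain, tissue and stage. There was no group lacking FOXL2 and no testis, so binding is described in a single condition.

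The deposited data analysed here were the positions of 11438 peaks on build mm10, each 300 bp wide, in 1 list for both ChIP samples. The list held no score, height or replicate value, so read depth is unknown, no peak has a replicate error and no difference between samples was tested. Values below are positions and counts. The ovaries were pooled whole, so binding in few cells and weak binding in many cells cannot be told apart. The list holds no expression values, so the labelled tissue was not checked against its marker genes.

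Activins are dimers of beta subunits, encoded by Inhba and Inhbb, and inhibins pair a beta subunit with the alpha subunit encoded by Inha. Activin binds a type II receptor (ACVR2A or ACVR2B), which recruits the type I receptor ACVR1B, and the signal passes to SMAD2 and SMAD3. Follistatin, from Fst, binds activin and keeps it from its receptors, and in the fetal ovary it acts with WNT4 and RSPO1 signals in supporting cells. FOXL2 is a forkhead transcription factor of those supporting cells and is known to act on Fst.

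Of the 9 members, 7 had at least 1 FOXL2 peak that lay nearer to them than to any other protein-coding gene, and Fstl3 and Inha had none. Such peaks are called own peaks here. Among all protein-coding genes 40.3% had an own peak within 100 kb, and 42.5% did among genes of the members' length range (3.29 to 89.2 kb). All 3 receptor genes had own peaks, as did 2 of 3 follistatin genes and 2 of 3 subunit genes. With 9 genes and a list chosen by name, the share of 77.8% is a description and was not tested.

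In all, 28 peaks lay in or within 100 kb of the members, of which 9 were own peaks and 19 lay nearest to a neighbouring gene. A peak near one of these genes was therefore more often nearest to another gene. The share of own peaks was 32.1%, and over all pairs of a protein-coding gene and a peak within 100 kb it was 22.0%. Every member had a peak within 100 kb, but so did 76.3% of protein-coding genes. Within 10 kb, 7 members had a peak of any kind against 49.6% of genes, and 6 had an own peak against 39.0%. The members had a median of 3 peaks in the 100 kb window and all protein-coding genes a median of 2. The peaks just inside the 100 kb limit lay 95.3 kb from Fstl3 and 95.2 kb from Acvr1b, and the next ones outside it lay 104 kb from Inhbb and 108 kb from Fstl3.

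**Figure D1:**
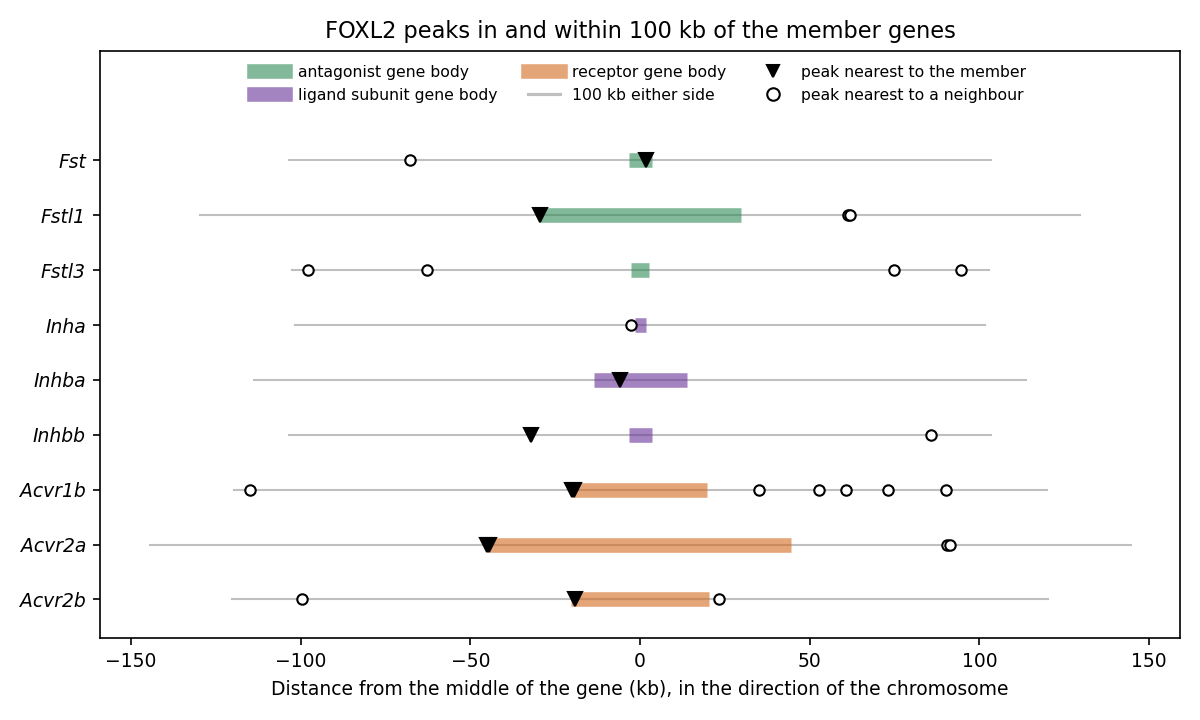
Positions of the 28 FOXL2 peaks around the 9 member genes. The horizontal axis is the distance in kb from the middle of each gene, bars are gene bodies coloured by role, triangles are peaks nearest to the member and circles are peaks nearest to a neighbour. The antagonist label covers Fst, Fstl1 and Fstl3, grouped by name, and whether Fstl1 acts on activin was not examined. The 3 receptor genes, Fstl1, Fst and Inhba have a triangle in or next to the gene, that of Inhbb lies 28.9 kb away, and Fstl3 and Inha have circles only.

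Annotated starts with their strand were taken from a set of RefSeq promoter windows (build GRCm38.p6, the assembly of mm10). The set lacks Fst, whose start and strand were therefore not used, and holds the other 8 members. Of these 8 genes, 5 had a peak centre within 1 kb of the listed start, against 38.4% of 17492 protein-coding genes with a listed start. That share is not matched to the members in promoter base composition, which is given below. These 5 are Fstl1, Inhba and the 3 receptor genes. For Inhba and Acvr2b the listed start lies inside the gene, and their peaks are 7766 and 1079 bp from the gene border. The promoter windows below, 250 bases before to 50 bases after the start, are those of the 4 members in which a peak reached into the window. Capitals mark the bases that lay inside a FOXL2 peak. Such overlap was seen for 22.3% of 21263 promoter windows of protein-coding genes.
Fstl1, chr16:37776805-37777104, plus strand: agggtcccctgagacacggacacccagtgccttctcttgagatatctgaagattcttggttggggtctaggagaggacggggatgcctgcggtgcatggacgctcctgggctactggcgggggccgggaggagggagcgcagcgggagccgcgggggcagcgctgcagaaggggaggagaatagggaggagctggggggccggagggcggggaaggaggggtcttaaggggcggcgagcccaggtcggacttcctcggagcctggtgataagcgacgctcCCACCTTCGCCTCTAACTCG
Inhba, chr13:16011601-16011900, plus strand: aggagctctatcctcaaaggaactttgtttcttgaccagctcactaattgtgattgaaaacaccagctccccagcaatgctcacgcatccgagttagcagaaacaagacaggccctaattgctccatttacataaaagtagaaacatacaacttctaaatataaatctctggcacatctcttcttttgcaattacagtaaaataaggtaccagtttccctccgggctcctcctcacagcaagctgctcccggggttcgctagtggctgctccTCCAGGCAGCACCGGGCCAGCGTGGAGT
Acvr1b, chr15:101173822-101174121, plus strand: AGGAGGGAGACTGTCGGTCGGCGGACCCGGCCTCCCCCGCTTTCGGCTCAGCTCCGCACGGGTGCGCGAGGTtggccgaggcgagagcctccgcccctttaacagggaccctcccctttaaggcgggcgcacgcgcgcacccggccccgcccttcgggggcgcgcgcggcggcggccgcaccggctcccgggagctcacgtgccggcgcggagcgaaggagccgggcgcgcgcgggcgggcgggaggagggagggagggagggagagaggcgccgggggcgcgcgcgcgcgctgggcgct
Acvr2a, chr2:48813859-48814158, plus strand: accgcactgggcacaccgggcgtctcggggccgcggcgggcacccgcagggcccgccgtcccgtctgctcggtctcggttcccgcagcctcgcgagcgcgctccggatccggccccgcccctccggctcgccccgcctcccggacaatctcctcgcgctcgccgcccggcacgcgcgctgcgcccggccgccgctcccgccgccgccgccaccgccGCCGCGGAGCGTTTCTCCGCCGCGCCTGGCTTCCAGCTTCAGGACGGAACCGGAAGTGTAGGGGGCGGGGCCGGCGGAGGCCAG
The overlap was 20 bases for Fstl1 and 28 for Inhba, both at the end of the window after the start. For Acvr1b the 72 bases came from the upstream peak, and for Acvr2a the 84 bases spanned the start itself.

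Across all 21263 listed starts of protein-coding genes, 7820 had a peak within 1 kb. The nearest peak was downstream of the start in 70.5% of these, at a median of 122 bp (quartiles -65 and 254 bp). The nearest member peaks at starts fell at 115 bp for Acvr2a, 171 bp for Inhba, 179 bp for Fstl1, -329 bp for Acvr1b and 484 bp for Acvr2b. Those of Acvr2a, Inhba and Fstl1 thus lay between the quartiles, and those of both other receptor genes lay outside them on either side.

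**Figure D2:**
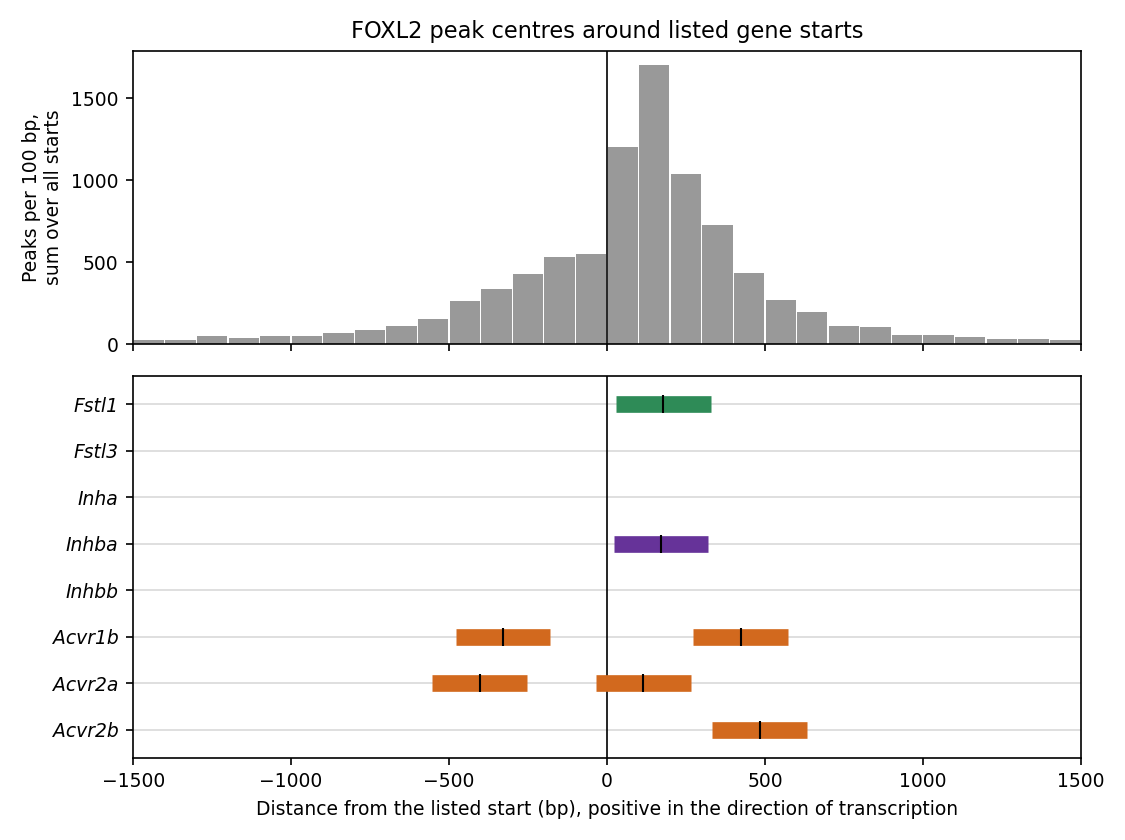
Peak centres around listed gene starts, in bp along the direction of transcription. The upper panel gives the number of peak centres per 100 bp summed over all starts of protein-coding genes, fullest from 100 to 200 bp downstream with 1705. The lower panel shows each 300 bp peak of the 8 members with a listed start as a bar with its centre ticked. Acvr1b and Acvr2a have a peak on each side of the start, and Fstl3, Inha and Inhbb have none in this range.

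Among the follistatin genes, Fst had an own peak on chromosome 13 from 114457236 to 114457535, inside the gene (114452262 to 114458989) and 1604 bp from its upper end. Whether this is exon or intron, and which end of Fst is its start, was not determined here. The same position lay inside Gm41074, a long noncoding RNA gene of 17.7 kb on the plus strand that overlaps Fst, 881 bp downstream of its listed start at 114456504. When genes of all kinds were allowed, this peak was therefore given to Gm41074 and Fst had no own peak. The only other peak within 100 kb of Fst lay 64.4 kb away, 240 bp inside Ndufs4, a subunit gene of respiratory complex I, and at its start. Beyond the window the next peak was 307 kb from Fst.

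Fstl1 encodes a secreted glycoprotein with a follistatin-type domain. Its own peak lay on chromosome 16 from 37777085 to 37777384, 179 bp downstream of the start, in a gene that extends over 59.5 kb. No other peak fell in the gene. The 2 further peaks in the window flanked the start of Lrrc58, 270 bp upstream and 323 bp downstream of it, at 31.6 and 32.2 kb from the end of Fstl1.

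Fstl3, whose product binds activin as follistatin does, had no peak within 50 kb although 13 other protein-coding genes lay at least partly within 100 kb of it. The 4 peaks in its window lay 60.1 to 95.3 kb away. Each was at the start of another gene: 227 bp upstream of Cdc34, 562 bp downstream of Hcn2, 369 bp downstream of Ptbp1 and 12 bp upstream of Plppr3. Cdc34 encodes a ubiquitin-conjugating enzyme, Hcn2 an ion channel and Ptbp1 a splicing regulator. The Ptbp1 peak also lay inside a long noncoding RNA gene, to which it was given when genes of all kinds were allowed. The window held 19.5 peaks per Mb, against 4.49 per Mb over chromosome 10. At least 4 peaks within 100 kb were found for 25.9% of protein-coding genes, so the number around Fstl3 was not unusual for a gene.

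Among the subunit genes, Inhba had the most isolated own peak. It lay on chromosome 13 from 16011873 to 16012172, which is 7766 bp inside the border of the gene but 171 bp downstream of the listed start at 16011851. No other protein-coding gene and no other peak lay within 100 kb of Inhba, and the next peak was 245 kb away, nearest to Gli3. This peak kept Inhba as its nearest gene by body, by border, by listed start and among genes of all kinds.

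Inhbb, which encodes the other beta subunit, had no peak in the gene or within 10 kb. Its own peak lay on chromosome 1 from 119386445 to 119386744, 28.9 kb past the end of this minus-strand gene and 35654 bp downstream of its start. No gene of any kind was nearer to that peak. The second peak in the window was 184 bp inside Ralb, a small GTPase gene, at its start and 82.3 kb upstream of Inhbb. Both beta subunit genes thus had a single own peak, at the start in Inhba and far from the gene in Inhbb.

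Inha had 1 peak in its window, on chromosome 1 from 75505829 to 75506128. It lay 1099 bp outside Inha and 508 bp inside Obsl1, a cytoskeletal linker gene, on the far side of the Obsl1 start from Inha. The genes are transcribed away from each other, with listed starts 1157 bp apart. The listed Inha start, at 75507609, lies inside that gene, which begins at 75507077. The borders of both genes are therefore closer together than the listed starts. The peak was 474 bp downstream of the listed Obsl1 start and 1631 bp upstream of the listed Inha start. By body, by border, by listed start and among genes of all kinds, Obsl1 was the nearest gene to this peak.

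The receptor genes carried 5 of the 9 own peaks. Acvr1b, the type I receptor gene for activin, had 1 peak 329 bp upstream of its start (chromosome 15, 101173594 to 101173893) and 1 peak 423 bp downstream (101174346 to 101174645), with centres 752 bp apart. Acvr2a, a type II receptor gene, had the same arrangement, 403 bp upstream (chromosome 2, 48813557 to 48813856) and 115 bp downstream (48814075 to 48814374), with centres 518 bp apart. Peaks on both sides of a start within 1 kb were thus seen in 2 of the 8 members, and in 2.48% of protein-coding genes with a listed start. At least 2 own peaks were found for the same 2 of 9 members and for 8.22% of all protein-coding genes. Both results, and the number of 5, rest on counting the peaks of each pair separately. With peaks within 1 kb merged, an alternative chosen after seeing the data, 7 own peaks remained in 7 members, 1 for each. Genome-wide, 5.27% of neighbouring peak centres lay within 1 kb of each other. Since the list has no heights, it does not show whether either peak of such a pair was the stronger.

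Acvr2b, the second type II receptor gene, had 1 own peak on chromosome 9 from 119402513 to 119402812, 484 bp downstream of its listed start. That start lies inside the gene, and the peak was 1079 bp from the gene border. A second peak 2.84 kb past the end of Acvr2b lay 30 bp downstream of the start of Exog, a mitochondrial nuclease gene, and counted for that gene. The third was 79.2 kb away, 60 bp downstream of the start of Oxsr1, a stress-responsive kinase gene. None of the 3 receptor genes had a peak deeper inside than 1 kb from its listed start, although the gene bodies are 39.6 kb (Acvr1b), 89.2 kb (Acvr2a) and 40.6 kb (Acvr2b) long.

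The surroundings of Acvr1b were the fullest, with 8 peaks in the window, a number reached by 1.50% of protein-coding genes. This was 33.4 peaks per Mb against 4.36 per Mb over chromosome 15. Of these peaks 6 lay nearest to neighbours. Nr4a1, an orphan nuclear receptor gene, had 3 of them: 80 bp downstream of its listed start, 552 bp inside the gene border and 7394 bp outside. Grasp, Atg101 and Fignl2 had 1 each, at 15.3, 70.5 and 95.2 kb from Acvr1b. The Grasp peak lay 4784 bp downstream of that gene's start. The window of Acvr2a held 2 neighbour peaks, 45.9 and 46.7 kb past its end. The first of these lay inside Orc4, a replication origin gene, and outside Mbd5, whose border was nevertheless the nearer. The second lay where Orc4 and Mbd5 overlap, nearer to the border of Mbd5. By listed start it was nearer to Orc4, at 158 bp, than to Mbd5, at 415 bp.

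Own and neighbour peaks were alike in sitting at starts. Of the 9 own peaks 7 lay within 1 kb of the listed start of the member, and the other 2 were those of Inhbb and of Fst, which has no listed start here. Of the 19 neighbour peaks 15 lay within 1 kb of a listed start of their nearest gene. The exceptions were the Grasp and Fignl2 peaks and 2 of the 3 Nr4a1 peaks. The Fignl2 peak lay 24494 bp upstream of the listed start but only 309 bp outside the upstream gene border. Likewise, the Nr4a1 peak 552 bp inside the upstream gene border lay 12392 bp upstream of the listed start. Of all peaks outside chromosome 18, 59.8% lay within 1 kb of a listed protein-coding start. That share counts the start of any gene and includes peaks whose nearest gene has no listed start. The nearest genes of all 19 neighbour peaks had one, so the shares are not measured alike.

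The base composition of the promoter windows was compared because it was not used to choose the genes. The CpG ratio, the number of CG dinucleotides over that given by the C and G content, was 1.14 for Acvr2a and 1.09 for Acvr1b, values reached by 1.61 and 3.16% of promoter windows. It was 0.74 for Inhbb, 0.69 for Acvr2b and Fstl3, 0.68 for Fstl1, 0.43 for Inhba and 0.22 for Inha. Both promoters with a peak on each side of the start were thus the most CpG-rich of the 8. Among promoter windows with a ratio of 0.6 or more, 65.3% had a peak within 1 kb of the start, and below 0.6 the share was 10.8%. All of the 8 member windows but those of Inhba and Inha were of the first kind. The 38.4% given above for all genes with a listed start is therefore a lower background than their CpG ratios would give. Inhba stood among the second kind, where peaks were less frequent (22.0% for ratios from 0.4 to 0.5), and had a peak. Inhbb stood among the first (58.7% for ratios from 0.7 to 0.8) and had none within 1 kb. Inha, with the lowest ratio, lay in an interval in which 5.47% had a peak. Its listed start at 75507609 lies inside the gene, which begins at 75507077, so its window lies wholly within the gene. The windows of Inhba and Acvr2b also lie wholly within their genes. For these members the ratio is that of the listed window and may not be that of the sequence at the gene border.

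**Figure D3:**
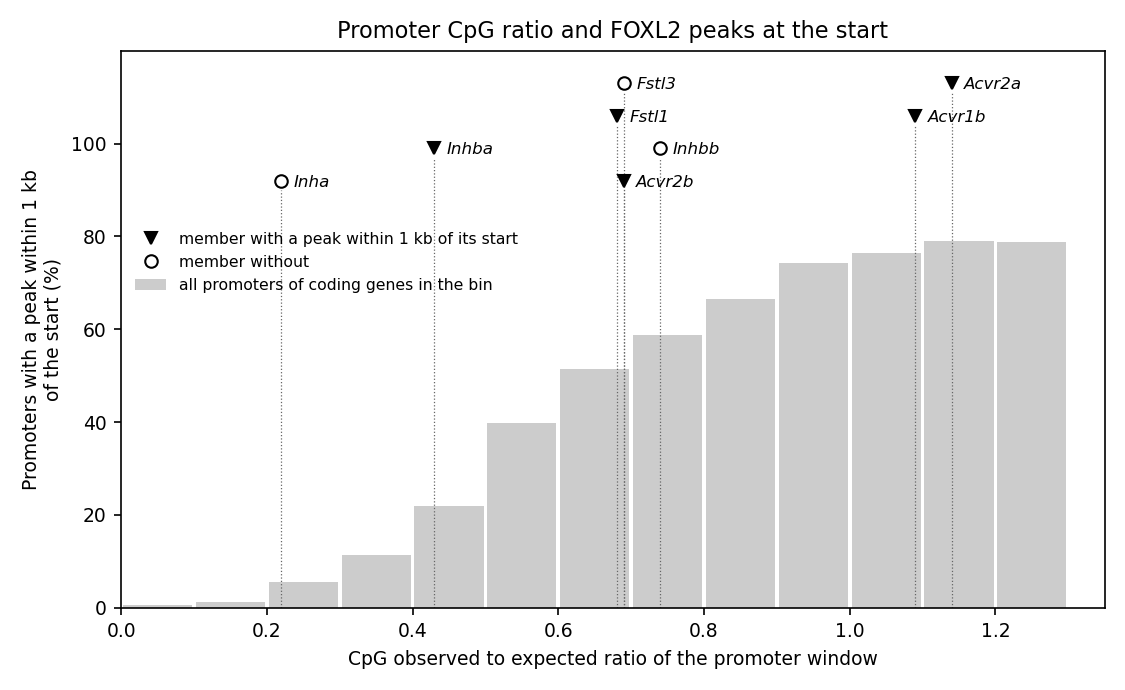
CpG observed to expected ratio of 300-base promoter windows (horizontal axis) and the percentage of protein-coding promoters with a FOXL2 peak within 1 kb of the start in each interval of 0.1 (bars, intervals with at least 100 promoters). Markers above the bars give the ratio of the 8 members with a listed start, filled triangles for those with a peak and open circles for those without; their height carries no value. Fstl1, Fstl3 and Acvr2b lie together at 0.68 to 0.69, 2 with a peak and 1 without.

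Acvr2b and Fstl3 had the same CpG ratio and differed in whether a peak was near, so their windows are shown for comparison. They are not fully alike, since the Acvr2b window lies inside the gene and that of Fstl3 spans the gene border. Neither window holds bases of a peak, since that of Acvr2b began further downstream.
Acvr2b, chr9:119401928-119402227, plus strand: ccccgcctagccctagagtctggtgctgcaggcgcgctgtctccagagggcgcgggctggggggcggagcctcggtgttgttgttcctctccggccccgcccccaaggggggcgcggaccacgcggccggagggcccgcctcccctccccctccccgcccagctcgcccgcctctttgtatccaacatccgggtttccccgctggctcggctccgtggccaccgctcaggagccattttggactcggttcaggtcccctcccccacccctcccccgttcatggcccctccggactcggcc
Fstl3, chr10:79777024-79777323, plus strand: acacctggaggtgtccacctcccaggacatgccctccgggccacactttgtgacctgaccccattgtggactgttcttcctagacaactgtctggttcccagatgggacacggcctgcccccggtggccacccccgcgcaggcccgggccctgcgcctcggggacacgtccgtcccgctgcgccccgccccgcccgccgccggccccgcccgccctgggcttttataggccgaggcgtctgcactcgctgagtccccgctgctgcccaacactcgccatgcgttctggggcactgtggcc
The GC box GGGCGG was found on either strand in 6 of the 8 windows, 4 times each in Acvr1b and Fstl3, 3 times each in Acvr2a and Acvr2b, 2 times in Fstl1 and 1 time in Inhbb, with overlapping matches counted. It was in neither Inha nor Inhba. Of all 21263 windows 46.2% held it, with 71.5% of those that had a peak within 1 kb of the start and 31.5% of the others. Among the members it was in 4 of the 5 with such a peak and 2 of the 3 without. Forkhead-type words were searched on both strands and were in none of the 8 windows. The word GTAAACA was in 3.01% of all windows and ATAAACA in 3.92%. Of the other forkhead words, GTCAACA was in 2.08% of all windows and TGTTTGC in 4.58%. The nuclear receptor word AAGGTCA, held by 4.08% of all windows, was not in the members either, and so neither was TCAAGGTCA, which contains it (0.334% of all). The GATA word AGATAA was in none of the 8 and in 9.65% of all windows. The SMAD words were GTCTAGAC, in no member window and 0.226% of all, and CAGAC, in 4 of 8 and 48.4% of all. CCAAT, searched as ATTGG on both strands, was in Inha alone of the 8 and in 38.2% of all. The windows cover only part of the peaks, so these letters say nothing of the sequence under most of each peak.

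The pathway was then followed beyond the members through 40 other genes of activin and inhibin signalling. Of these 19 had an own peak within 100 kb, which is 47.5% and close to the 40.3% of all protein-coding genes. Ligand genes related to the activin subunits had the fewest, 1 of 9: Gdf9, an oocyte growth factor gene, with a peak 4211 bp outside the gene. The beta subunit paralogues Inhbc and Inhbe had their closest peaks at 89.9 and 83.0 kb. Of receptors and co-receptors 2 of 7 had own peaks. Acvr1, a type I receptor gene, had 1 peak 147 bp downstream of its start. Tgfbr3, which encodes the inhibin co-receptor betaglycan, had 1 peak inside the gene, 333 bp from its border, and another 59733 bp outside it. Acvr1c, also a type I receptor gene, had no peak within 100 kb, and the closest lay 209 kb away.

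Of antagonists and follistatin-like genes 3 of 7 had own peaks. Fstl4 had 1 peak 53 bp upstream and 1 peak 411 bp downstream of its start, and Fstl5 had 1 peak 61 bp upstream. All 3 protease genes whose products can cleave TGF-beta family precursors had own peaks. Furin had a peak on each side of its start, at -294 and 555 bp, and Pcsk5 had peaks 41 and 773 bp downstream of its start and another deep inside the gene.

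Of the SMAD genes 3 of 4 had own peaks. Smad4, the common partner of receptor-activated SMADs, had peaks 20 and 634 bp inside the gene border and another 11732 bp outside. Smad2 had 1 peak 372 bp inside. Smad3 had none, and its closest peak lay 44.1 kb away. Of SMAD partners and regulators 7 of 10 had own peaks. Those named by rule were the phosphatase gene Ppm1a (233 bp upstream and 541 bp downstream of its start, and 32300 bp outside the gene), the corepressor gene Ski (1057 and 3115 bp outside), and the ubiquitin ligase genes Smurf1 (243 bp upstream) and Smurf2 (114 bp downstream). Tgif2, a corepressor gene, had a peak 76 bp upstream of its start.

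**Figure D4:**
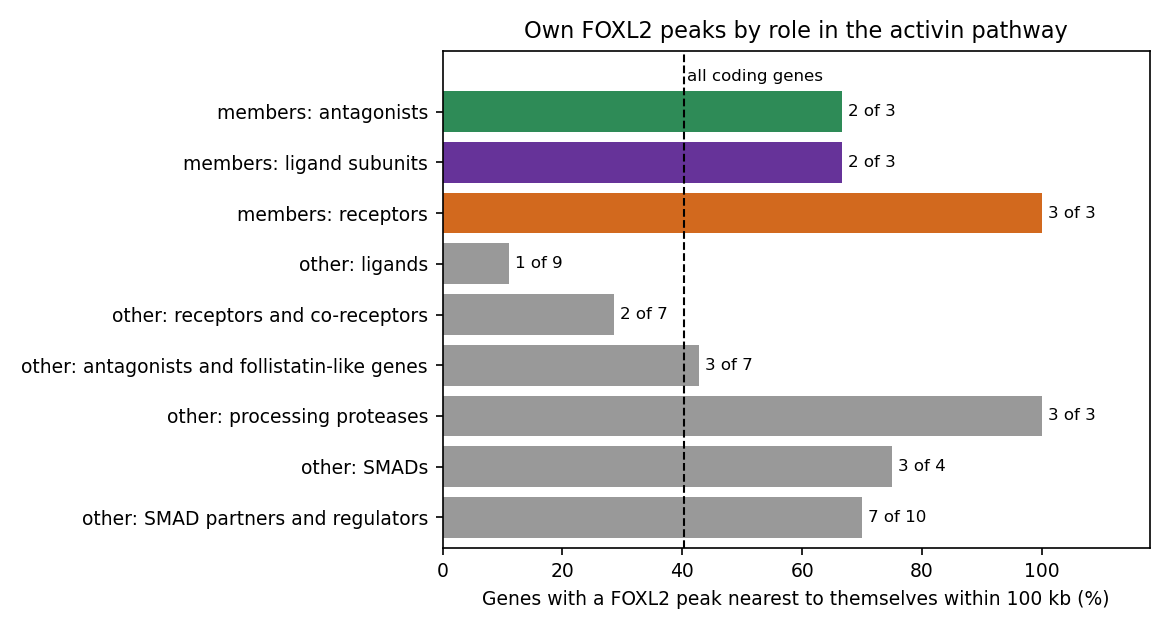
Percentage of genes with a FOXL2 peak nearest to themselves within 100 kb, by role, for the 9 members (coloured bars) and the 40 other pathway genes (grey bars), with the count beside each bar. The members labelled antagonists are Fst, Fstl1 and Fstl3, grouped by name. The dashed line marks the 40.3% of all protein-coding genes. Receptor members and proteases reach 3 of 3, and the other ligand genes 1 of 9; with 3 to 10 genes a bar, no difference between bars was tested.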

How the data were processed

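FOXL2 ChIP-seq and input were measured in 2 samples each, grouped by sample title. Per the submitters' processing notes, Bowtie 1.2, Picard 1.110, bedtools 2.24.0, HOMER 4.9 and build mm10 were used. Not given in the sources used here were their roles, the peak threshold and the pooling of replicates. The authors' deposited values are other than counts or signal: start and end positions of 11438 peaks, of which 11435 on chromosomes 1 to 19, X and Y were used. Read depth is unknown, so a place without a peak may hold weaker binding.

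Positions were made 1-based, and a peak was placed by its centre. A peak belonged to the protein-coding gene with the smallest distance to its body (0 inside), ties going to the nearer border. Genes came from a RefSeq table and starts, strands and sequences from RefSeq promoter windows, both of GRCm38.p6. The start windows cover 17492 of 21887 genes and none on chromosome 18. Sequences under peaks were not analysed here, since no genome was used. Motifs were exact matches. Assignment was tested on simulated data. Python 3.11.15, numpy 2.4.6 and pandas 2.3.3 were used.

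The members and lists were chosen with earlier results of these data known, and the CpG comparison and pathway roles after the data were examined. Named genes were the members, the nearest gene of each peak around them, up to 12 pathway genes by number of own peaks within 10 kb and then distance, and fixed receptors and SMADs. Gdf9, Inhbc, Inhbe, Gm41074 and Gli3 fall outside this rule and were named after their values were seen.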

Additional observations from a re-analysis of the deposited data

How the results depend on the processing

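The count of 28 peaks around the members depended on the reach, with 18 within 50 kb and 10 within 10 kb. Taking the peak edge, or merging peaks within 500 bp, left it at 28, and merging within 1 kb, an alternative chosen after seeing the data, gave 24. Under 8 alternatives the number of members with an own peak stayed at 6 or 7 and the number of own peaks at 7 to 9. The members that lost theirs were Inhbb within 10 kb and Fst among genes of all kinds. By nearest listed start Fst could not be counted, since it has none here. Other pathway genes with an own peak numbered 14 to 19 and protein-coding genes 7511 to 8823, against 19 and 8823 as reported. The lowest of both ranges came from the nearest listed start, under which genes with no listed start could not be counted. No paired analysis was possible because the data are a single list for both ChIP samples, and for the same reason no replicate could be left out. Unknown read depth limits every statement on a gene without a peak.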
